A study of Mus musculus with 10 samples.

Results

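Nkx2-1, Fezf2, Six3, Lhx2, Emx2, Otx2, Barhl2, Hesx1 and Rax encode transcription factors that pattern the front of the embryonic brain, and their transcripts were followed across mouse teratomas that differ in the form of the tumour suppressor VHL. These 9 genes were chosen with earlier results of the same arrays known, and all 9 were found among the 18820 genes that a probe set of 1 gene measures. Probe sets were chosen by their mean log2 value over all arrays, the highest for each gene, but each gene had only 1 such probe set, so this choice decided nothing. No contrast between genotypes entered the rule itself. Since the genes were picked with results in view, counts over them are a description and are read beside the share of all genes called.

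A teratoma is a tumour of mixed tissues grown from pluripotent cells. All tumours grew under the skin of female nude mice from J1 embryonic stem cells (Sv/129 strain) that lack mouse Vhl and express a human VHL cDNA introduced by electroporation. The cDNA carried P81S (4 arrays), R167Q (3 arrays) or the wildtype sequence (3 arrays), and each tumour was hybridised to its own 1-colour Affymetrix array. The labels call the P81S tumours resistant to apoptosis and the R167Q and wildtype tumours apoptotic. The P81S arrays stand for 2 clones of cells with 2 tumours each, which of them belong together is not labelled, and neither the number of clones of the other genotypes nor the promoter behind the cDNA is given. By their labels all groups share the donor strain, the host and cells without functional mouse Vhl, and a difference between clones counts here as a difference between genotypes.

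In the mouse embryo the anterior neural plate is set apart early, when Otx2, Hesx1 and Six3 keep it free of the signals that turn neural tissue into midbrain and hindbrain. Rax and Six3 then mark the eye field, Nkx2-1 the hypothalamus and the ventral telencephalon, and Lhx2, Emx2 and Fezf2 the cortical primordium. Barhl2 is active in the diencephalon and the retina. Several of the genes are also used elsewhere, Nkx2-1 in thyroid and lung, Emx2 in the urogenital system, Hesx1 in the pituitary primordium, and Otx2 and Hesx1 in pluripotent or epiblast cells. VHL itself is the substrate receptor of a ubiquitin ligase that removes hypoxia-inducible factors when oxygen is present. The comparisons ask how each mutant form differs from the wildtype protein, and how the mutants differ from each other.

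Values are deposited log2 expression values, in which 1 unit is a 2-fold change, and the median of an array was 6.97 to 7.11. Probe signal over background is unknown here, so a low value cannot be called absent. Genes with a mean under 5.98 log2, the median of the control probe sets, are called dim here. None of the 9 genes was dim by its mean. All R167Q and wildtype values of Emx2 and Rax and all P81S values of Hesx1 lay under 5.98 log2, so their fold sizes rest partly on low values. The correlation across genes between arrays was 0.966 to 0.989 within P81S, 0.988 to 0.989 within R167Q and 0.989 to 0.993 within wildtype, with genes not being independent replicates. P81S replicate 1 stood apart in its epithelial genes, with a mean over 9 squamous epithelium genes of 9.38 against 6.17 to 6.70 in the other P81S arrays. Chromosome 11 genes had medians of -0.36 and -0.35 log2 in P81S replicates 1 and 2, relative to the mean of the 6 other-genotype arrays, and -0.02 in both P81S replicates 3 and 4. Chromosome 8 genes had medians of 0.13 to 0.20 in the 4 P81S arrays. None of the 9 genes lies on chromosome 8 or 11. The probe set of mouse Vhl read 8.49 to 8.90 log2 in P81S, 6.83 to 7.21 in R167Q and 6.85 to 6.95 in wildtype, so it was higher in every P81S array. Whether its probes lie in the disrupted part of the gene or also read the human cDNA is unknown here, so these values do not check the labels. The mean of the Y-linked Eif2s3y, Kdm5d and Uty, which can come only from the donor cells, was 8.42 to 9.28 in P81S, 9.12 to 9.52 in R167Q and 4.26 to 4.70 in wildtype, so the wildtype tumours also differ from both mutants in these genes, and their part in the results was not tested.

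Against wildtype, 6 of the 9 genes rose in P81S teratomas (Nkx2-1, Fezf2, Six3, Emx2, Barhl2 and Rax), Hesx1 fell, and Lhx2 and Otx2 did not pass. Among all 18820 genes 17.2% were called higher and 17.5% lower in this comparison, 34.7% in all, at an adjusted p under 0.05. The 6 rises and the 1 fall were all of at least 2-fold, a size reached upward by 6.1% and downward by 4.95% of all genes. The median difference over the 9 genes was 1.32 log2, beside 0.01 over all genes. P81S and wildtype arrays were fully separate for the same 6 genes upward and for Hesx1 downward, beside 19.9% and 20.7% of all genes. In bulk tissue, more cells of a type and more RNA per cell cannot be told apart.

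**Figure D1:**
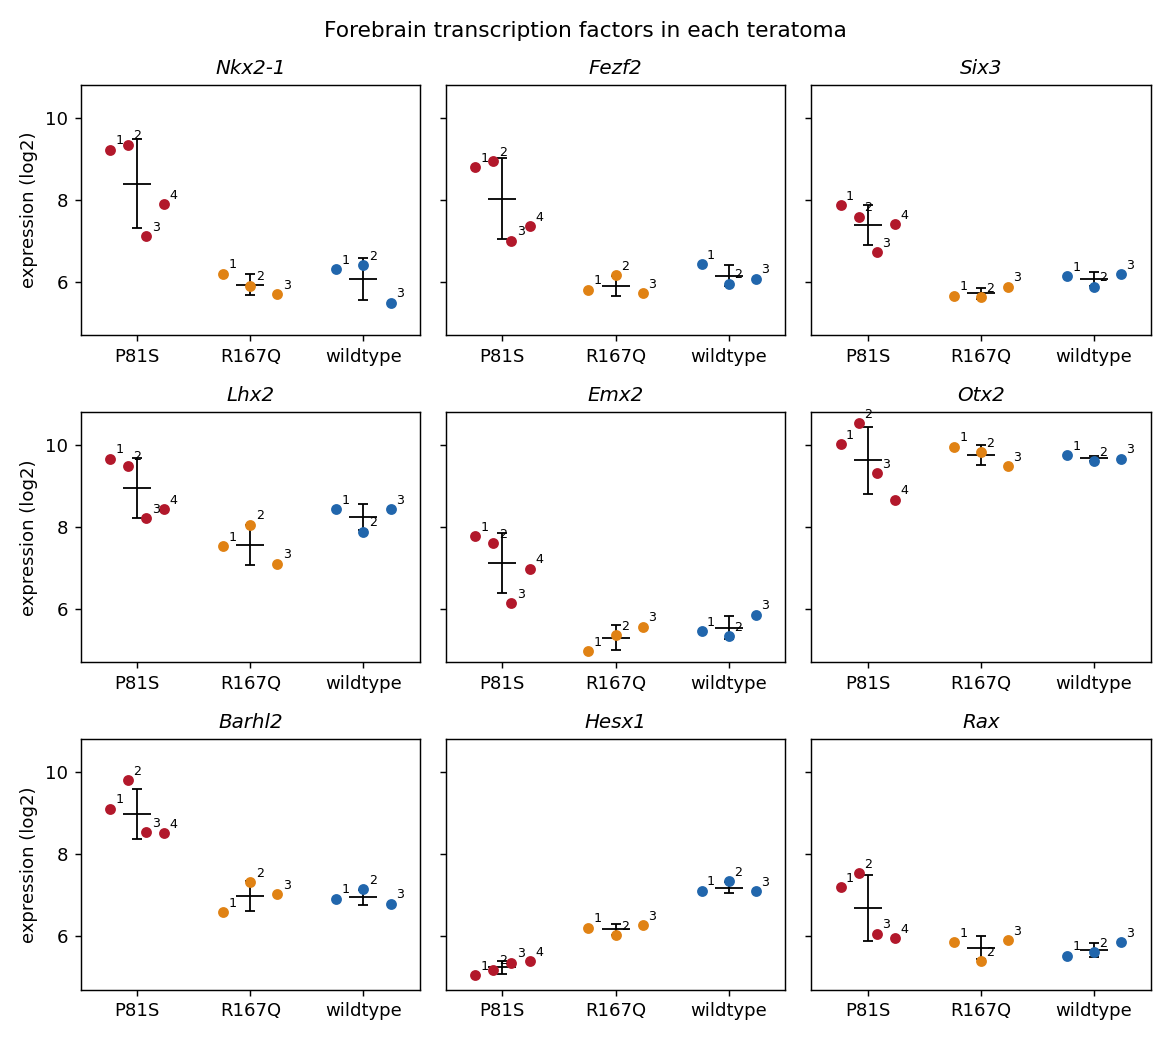
Expression (log2, vertical axis, shared by all panels) of the 9 transcription factor genes in each teratoma, with the replicate number beside each point; bars mark the group mean and its SD (n = 4 for P81S, n = 3 for R167Q and for wildtype). P81S points lie above all others for Nkx2-1, Fezf2, Six3, Emx2, Barhl2 and Rax, below all others for Hesx1, and spread around the others for Otx2.

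Nkx2-1, the homeobox gene of the hypothalamus and the medial ganglionic eminence, showed the largest rise of the 9. Its log2 values, in the order of the replicate numbers as for all genes below, were 9.23, 9.35, 7.11 and 7.89 in P81S, 6.20, 5.90 and 5.70 in R167Q, and 6.31, 6.41 and 5.49 in wildtype. Replicates 1 and 2 of P81S were the highest, and even the lowest P81S array exceeded every R167Q and wildtype array. The rise over wildtype was 2.33 ± 0.49 log2 (SE; 5.02-fold; adjusted p = 0.00343). With P81S replicates 3 and 4 alone it was 1.43 log2 (2.70-fold; adjusted p = 0.00595), and with replicates 1 and 2 alone 3.22 log2 (9.33-fold; adjusted p = 0.000429). With arrays weighted by their quality it was 1.40 log2 (adjusted p = 0.0158).

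Fezf2, a zinc finger gene needed for subcortical projection neurons of the cortex, followed a like pattern. It had 8.80, 8.95, 7.0 and 7.36 log2 in the P81S arrays, 5.81, 6.16 and 5.72 in the R167Q arrays, and 6.43, 5.95 and 6.07 in the wildtype arrays. No P81S value overlapped the other groups, and replicates 3 and 4 lay closest to them. The difference from wildtype was 1.88 ± 0.43 log2 (SE; 3.68-fold; adjusted p = 0.00577), and 1.03 log2 (2.05-fold; adjusted p = 0.0041) with P81S replicates 3 and 4 alone.

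Emx2, a homeobox gene that sets area identity in the cortex, was 7.78, 7.60, 6.14 and 6.98 log2 in P81S, 4.97, 5.36 and 5.57 in R167Q, and 5.45, 5.33 and 5.86 in wildtype. The groups were separate, although P81S replicate 3 came close to the highest wildtype array. The rise over wildtype was 1.58 ± 0.34 log2 (SE; 2.98-fold; adjusted p = 0.00437), and 1.01 log2 (2.02-fold; adjusted p = 0.0171) with P81S replicates 3 and 4 alone.

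Lhx2, a LIM homeobox gene that keeps cortical progenitors in the cortical fate and is also needed for the eye, was less clear. It read 9.67, 9.5, 8.22 and 8.43 log2 in P81S, 7.53, 8.06 and 7.10 in R167Q, and 8.43, 7.89 and 8.44 in wildtype. P81S replicates 1 and 2 stood above all other arrays, while replicates 3 and 4 lay within the wildtype range. The difference from wildtype of 0.70 ± 0.36 log2 (SE) did not pass (adjusted p = 0.167). It was 1.33 log2 with P81S replicates 1 and 2 alone (adjusted p = 0.00833) and 0.07 log2 with replicates 3 and 4 alone (adjusted p = 0.87).

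Six3, a homeobox gene of the rostral forebrain and eye field, rose with less spread between arrays. It had 7.87, 7.59, 6.72 and 7.40 log2 in P81S, 5.66, 5.63 and 5.88 in R167Q, and 6.14, 5.88 and 6.19 in wildtype. All 4 P81S arrays were above all others, and all 3 R167Q arrays were at or below the lowest wildtype array. The P81S rise over wildtype was 1.32 ± 0.24 log2 (SE; 2.51-fold; adjusted p = 0.00143), and 0.99 log2 (1.99-fold; adjusted p = 0.00566) with P81S replicates 3 and 4 alone.

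Rax, which starts the eye field, gave the weakest of the called rises. It read 7.19, 7.54, 6.06 and 5.95 log2 in P81S, 5.85, 5.39 and 5.90 in R167Q, and 5.52, 5.61 and 5.85 in wildtype. Only P81S replicates 1 and 2 were clearly higher, and replicates 3 and 4 exceeded the other arrays by a small margin. The rise over wildtype was 1.03 ± 0.36 log2 (SE; 2.04-fold; adjusted p = 0.0449), and 0.35 log2 (1.27-fold; adjusted p = 0.199) with P81S replicates 3 and 4 alone. Omission of any 1 array other than P81S replicate 3 or 4 ended the call, with adjusted p of up to 0.124.

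Barhl2, a homeobox gene of diencephalic and retinal neurons, was high in every P81S array. Its values were 9.11, 9.81, 8.54 and 8.51 log2 in P81S, 6.58, 7.32 and 7.03 in R167Q, and 6.91, 7.15 and 6.79 in wildtype. The lowest P81S array was more than 1 log2 unit above the highest array of either other group. The rise over wildtype was 2.04 ± 0.30 log2 (SE; 4.13-fold; adjusted p = 0.000427), and 1.58 log2 (2.99-fold; adjusted p = 0.000494) with P81S replicates 3 and 4 alone.

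Hesx1, a repressor of the anterior neural plate and of the pituitary primordium, moved the other way and differed between all 3 genotypes. It read 5.05, 5.18, 5.35 and 5.39 log2 in P81S, 6.21, 6.02 and 6.27 in R167Q, and 7.11, 7.34 and 7.09 in wildtype. All P81S arrays were below all R167Q arrays, and these were below all wildtype arrays, an order found in 5.07% of all genes. In P81S it fell by 1.94 ± 0.14 log2 (SE; 3.84-fold lower; adjusted p = 1.96e-05) against wildtype and by 0.93 ± 0.14 log2 (1.90-fold lower; adjusted p = 0.00149) against R167Q. The fall against wildtype kept its size in either pair of P81S arrays, at 2.07 log2 or 4.19-fold lower with replicates 1 and 2 and 3.52-fold lower with replicates 3 and 4.

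Otx2, which is needed to form the forebrain and midbrain and is also active in epiblast cells, did not pass in any comparison. It had 10.03, 10.53, 9.31 and 8.67 log2 in P81S, 9.96, 9.83 and 9.48 in R167Q, and 9.75, 9.61 and 9.67 in wildtype. The P81S arrays lay on both sides of the other groups, with replicates 1 and 2 above every one of them and replicates 3 and 4 below. Their mean differed from wildtype by -0.04 ± 0.35 log2 (SE; adjusted p = 0.94). With P81S replicates 1 and 2 alone Otx2 was 0.60 log2 higher than in wildtype (adjusted p = 0.0398). With replicates 3 and 4 alone it was 0.69 log2 lower (adjusted p = 0.0203). These pairs are its highest and its lowest P81S arrays and no label sets them apart, so opposite signs follow from the split.

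Against R167Q, 7 of the 9 genes were called in P81S, with Lhx2 in place of Rax. Nkx2-1, Fezf2, Six3, Lhx2, Emx2 and Barhl2 rose and Hesx1 fell, beside 12.4% and 10.1% of all genes and 22.5% in either direction. Of all genes 3.34% rose and 2.63% fell by at least 2-fold. The arrays were separate for 7 of the 9 genes upward, Rax among them, and for Hesx1 downward, beside 16.5% and 14.2% of all genes. Since this comparison and the one with wildtype share the P81S arrays, the 2 sets of values are given side by side and are not independent. Lhx2 averaged 8.95 ± 0.74 log2 in the 4 P81S arrays and 7.56 ± 0.48 in the 3 R167Q arrays (SD), a rise of 1.39 ± 0.36 log2 (SE; 2.62-fold; adjusted p = 0.0188). Without R167Q replicate 1 or 3 the Lhx2 call ended, at adjusted p of 0.0673 and 0.0847, and it also ended with P81S replicates 3 and 4 alone, at 0.76 log2 (adjusted p = 0.0673). Rax was 0.97 ± 0.36 log2 (SE) higher and did not pass (adjusted p = 0.0753). The other rises against R167Q were 2.46 ± 0.49 log2 for Nkx2-1, 2.13 ± 0.43 for Fezf2, 1.67 ± 0.24 for Six3, 1.82 ± 0.34 for Emx2 and 2.02 ± 0.30 for Barhl2, with adjusted p between 0.00116 and 0.00544.

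R167Q and wildtype teratomas differed in 1 of the 9 genes. Hesx1 fell by 1.01 ± 0.15 log2 (SE; 2.02-fold lower; adjusted p = 0.046) in R167Q, beside 0.0266% of all genes called lower, each by at least 2-fold, and 0.0638% called higher (0.0584% by at least 2-fold), 0.0903% in all. The call lay close to the threshold: it ended when dim genes were left out (adjusted p = 0.0574), with median centring (0.0511), without any single R167Q or wildtype array (0.101 to 0.271), and without P81S replicate 2, 3 or 4 (0.0644 to 0.0961). The 3 R167Q arrays were nevertheless below the 3 wildtype arrays for Hesx1, and also for Six3 (-0.35 ± 0.25 log2, adjusted p = 0.712), an order seen in 12.4% of all genes, while 6.93% of all genes and none of the 9 had them all above. The other differences, with SE of 0.32 to 0.52, were between -0.69 log2 for Lhx2 and 0.08 log2 for Otx2, with adjusted p of 0.606 or more.

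**Figure D2:**
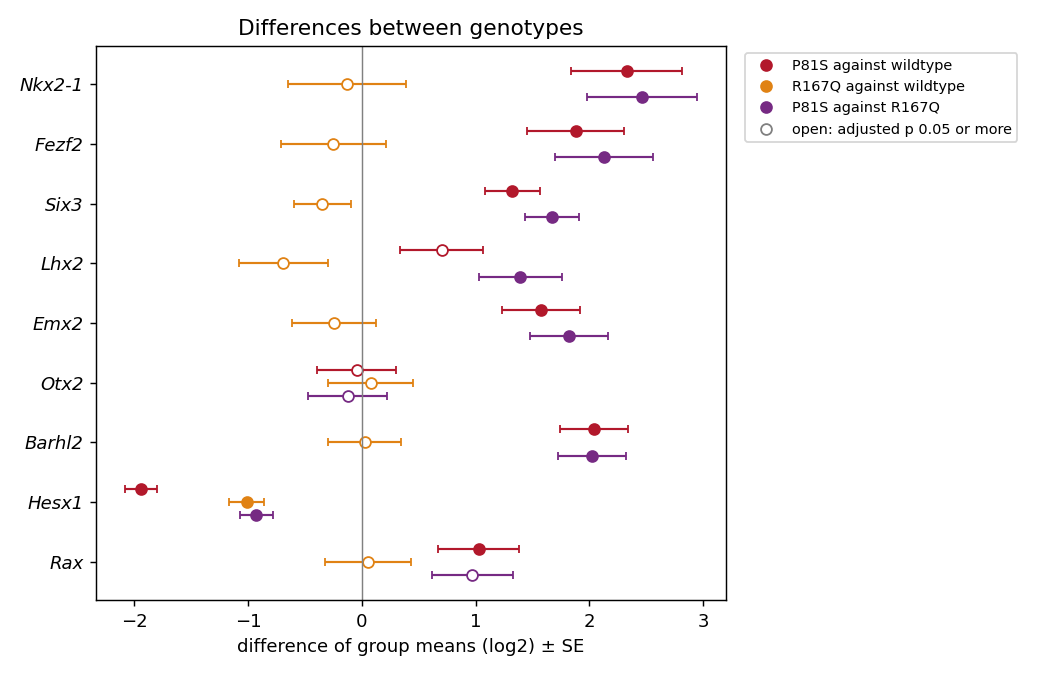
Difference of group means (log2, horizontal axis) with its SE for each gene in the 3 comparisons; filled points have an adjusted p under 0.05 over all 18820 genes. The P81S comparisons lie to the right of 0 for Nkx2-1, Fezf2, Six3, Lhx2, Emx2, Barhl2 and Rax, and all 3 comparisons lie to the left for Hesx1.

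The P81S arrays varied among themselves in a shared way. For 8 of the 9 genes, Otx2 and Lhx2 included, P81S replicates 1 and 2 were both above replicates 3 and 4, an order that 20.6% of all genes showed. Hesx1 had them both below, as 17.9% of all genes did. The SD within P81S exceeded the SD within R167Q and within wildtype for all 9 genes, beside 50% of all genes. It ranged from 0.16 for Hesx1 to 1.08 log2 for Nkx2-1. Replicates 1 and 2 are also the arrays with low chromosome 11 medians, and no label ties arrays to clones, so the part of a clone in this pattern was not tested. With replicates 3 and 4 as the only P81S arrays, 5 genes rose against wildtype (Nkx2-1, Fezf2, Six3, Emx2 and Barhl2) and Hesx1 and Otx2 fell, beside 18.2% of all genes called higher and 18.7% lower in the same fit. With replicates 1 and 2 alone, 8 rose and Hesx1 fell, beside 12.8% called higher and 12.9% lower. These are the highest P81S arrays for the 8 genes and the lowest for Hesx1, so larger differences with them follow from the split.

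**Figure D3:**
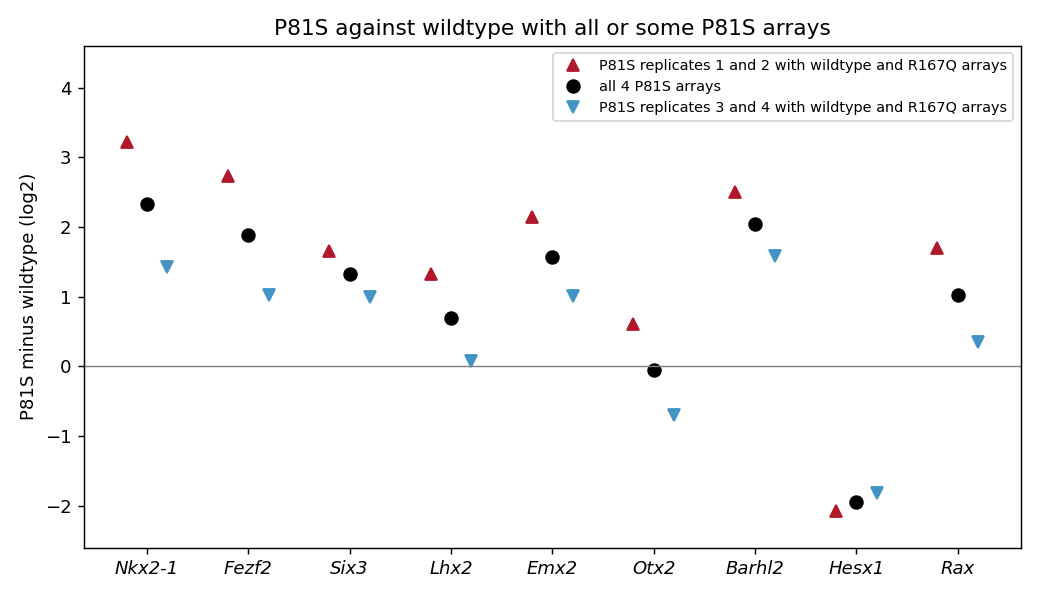
P81S minus wildtype (log2, vertical axis) for each gene with all 4 P81S arrays, with replicates 1 and 2 alone, and with replicates 3 and 4 alone, each in a fit with the same wildtype and R167Q arrays. The values with replicates 1 and 2 are the highest for every gene but Hesx1; Otx2 stands at 0.60 with replicates 1 and 2 and at -0.69 with replicates 3 and 4.

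The sequence before the transcription start was examined for features that the genes share. RefSeq windows of 250 bases (GRCm38.p6) were at hand for 8 of the genes, 12 windows in all, because Otx2 has 4 annotated starts and Lhx2 has 2. Windows of Barhl2 and Emx2, which rose in P81S, and of Hesx1, which fell, are printed with CG dinucleotides in capitals. They show how far windows can differ in CG dinucleotides and do not stand for the genes that rose. The Barhl2 window lies at chr5:106458167-106458416 on the minus strand, the Emx2 window at chr19:59458440-59458689 on the plus strand and the Hesx1 window at chr14:27000112-27000361 on the plus strand.
Barhl2: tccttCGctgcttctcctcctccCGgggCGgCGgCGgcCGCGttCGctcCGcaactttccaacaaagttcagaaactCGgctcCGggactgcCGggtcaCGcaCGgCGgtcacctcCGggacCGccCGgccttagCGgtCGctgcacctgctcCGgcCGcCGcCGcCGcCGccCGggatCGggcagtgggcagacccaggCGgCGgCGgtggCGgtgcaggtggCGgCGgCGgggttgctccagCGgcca
Emx2: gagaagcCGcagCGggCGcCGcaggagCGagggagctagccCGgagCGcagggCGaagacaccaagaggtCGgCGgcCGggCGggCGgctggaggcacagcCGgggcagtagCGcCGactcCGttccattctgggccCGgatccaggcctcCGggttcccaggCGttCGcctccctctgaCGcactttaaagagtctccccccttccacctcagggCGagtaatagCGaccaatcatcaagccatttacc
Hesx1: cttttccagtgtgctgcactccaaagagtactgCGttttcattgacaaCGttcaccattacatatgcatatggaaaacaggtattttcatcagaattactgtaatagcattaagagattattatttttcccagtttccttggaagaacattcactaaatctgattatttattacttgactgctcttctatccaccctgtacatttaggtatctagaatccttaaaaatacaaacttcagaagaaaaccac

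The Barhl2 window held 36 CG dinucleotides and 74.8% G and C, the Emx2 window 24 and 67.2%, and the Hesx1 window 2 and 34%, beside medians of 6 and 52.4% over all 32851 windows. The Nkx2-1 window had 9 CG dinucleotides, Six3 had 10 and Fezf2 had 14, and the Lhx2 windows had 24 and 25. The Otx2 windows had 9, 14, 8 and 6. Among the genes that rose, Rax left out, counts thus went from 9 for Nkx2-1 to 36 for Barhl2. The Hesx1 window lies within the RefSeq span of its gene, as do those of Fezf2 and Six3 and some of Lhx2 and Otx2. The core of the hypoxia response element, ACGTG, was searched on both strands and occurred in 1 of the 12 windows, at an Otx2 start within the gene (chr14:48665110-48665359), and in 16.6% of all windows. TAATTA, a core that many homeodomain proteins bind, occurred in 2 of the 12, both at Otx2, and in 4.84% of all windows. These are descriptions of letters in short windows and show nothing of binding.

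Each gene was next set beside the genes whose profile over the 10 arrays was closest, by the root mean square (RMS) difference between values centred on each gene's own mean. Six3 and Emx2 were closer to each other, at 0.23 log2, than to any other gene. Dlx2, a homeobox gene of the ganglionic eminences, was the closest gene to both Nkx2-1 (RMS 0.32 log2) and Fezf2 (0.26 log2). It read 9.99, 9.82, 8.31 and 9.24 log2 in P81S, 7.19, 7.31 and 6.98 in R167Q, and 7.71, 7.33 and 7.06 in wildtype. Its P81S arrays were highest in replicates 1 and 2 and lowest in replicate 3, a likeness that follows from its choice by profile. Nkx2-1 and Fezf2 came next for each other (0.35). Outside the 9 genes, Dlx5 followed Dlx2 for Nkx2-1 (0.44), and Nr2e1, an orphan nuclear receptor of forebrain progenitors, followed it for Fezf2 (0.37). For Six3 the closest other genes were Six3os1 (0.24), a noncoding transcript whose RefSeq span overlaps that of Six3, and Fezf1 (0.26), and for Emx2 they were Fezf1 (0.30) and Six6 (0.31). Where spans overlap, the array values of Six3 and Six3os1 may share signal.

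Barhl2 was closest to Pak6 (0.30), a kinase gene, and Irs4 (0.32), an adaptor of insulin signalling. The nearest profiles to Rax were Trpv1 (0.27) and Gm16551 (0.28), and those to Lhx2 were Gm16551 (0.35) and Actr1a (0.38). Otx2 had an immunoglobulin kappa variable gene (0.14) and Nuak2 (0.15) as its nearest profiles, and no other of the 9 genes within 0.59. Hesx1 was nearest to Prame (0.21) and Ephx2 (0.21), and its distance to the nearest of the other 8 genes was 0.96. Prame had 4.87, 4.68, 4.87 and 4.52 log2 in P81S, 5.84, 5.50 and 5.66 in R167Q, and 6.77, 6.70 and 6.94 in wildtype. Its order of genotypes was that of Hesx1, which also follows from its choice by profile.

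Several of the 9 genes have paralogues that work in the same regions, and these are given here after their values were seen. Fezf1 rose in P81S against wildtype by 1.81 ± 0.27 log2 (SE; 3.51-fold; adjusted p = 0.000476), and its arrays read 9.29, 8.88, 7.98 and 8.74 log2 in P81S, 7.14, 7.02 and 7.15 in R167Q, and 7.19, 6.54 and 7.0 in wildtype. Barhl1 rose by 0.92 ± 0.24 log2 (SE; 1.89-fold; adjusted p = 0.0128). Six6, a paralogue of Six3 in the eye and hypothalamus, was 1.31 ± 0.47 log2 (SE) higher and did not pass (adjusted p = 0.0517). Otx1 (0.49 log2, adjusted p = 0.132), Nkx2-4 (0.49, 0.172), Lhx9 (0.59, 0.0663) and Emx1 (0.04, 0.851) did not pass either. Against R167Q, Six6 rose 2.82-fold in P81S (adjusted p = 0.042), Lhx9 by 1.10 log2 (0.00603) and Otx1 by 0.77 log2 (0.0349), as did Fezf1 (1.62, 0.00216) and Barhl1 (0.88, 0.024), while Nkx2-4 (0.77, 0.0539) and Emx1 (0.16, 0.473) did not pass. Without probe sequences, signal that paralogues share cannot be told apart.

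Other genes of forebrain regions rose in P81S as well. In a list of 14 measured telencephalon and cortex genes 7 rose and 0 fell against wildtype, and the other 7 did not pass. Of all genes 17.2% were called higher and 17.5% lower. The list median was 0.63 log2 beside 0.01 over all genes. Tbr1, a T-box gene of early cortical neurons, rose 3.59-fold (1.84 ± 0.27 log2, adjusted p = 0.00044), and Nr2f2, a nuclear receptor of caudal forebrain, 1.80-fold (0.85 ± 0.14, adjusted p = 0.00101). The ventral telencephalon list had 8 rises, 0 falls and 4 genes that did not pass among 12, with a median of 1.01 log2. Dlx5 rose 4.02-fold (2.01 ± 0.27 log2), Dlx6 3.43-fold (1.78 ± 0.20) and the zinc finger gene Sp9 of developing interneurons 2.13-fold (1.09 ± 0.16). Without P81S replicates 1 and 2 the counts were 6 and 1 for cortex and 7 and 0 for the ventral list.

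Few genes of the hypothalamus, diencephalon and eye lists passed with all 4 P81S arrays. The hypothalamus and diencephalon list had 3 rises, 0 falls and 14 genes that did not pass among 17, a share of rises near the 17.2% of all genes, with a median of 0.35 log2. The 3 were Sim1, a regulator of hypothalamic neurons (2.62-fold), Barhl1 and Bsx, a homeobox gene of hypothalamic neurons (2.39-fold). Without P81S replicates 1 and 2, 1 rose and 1 fell, and without replicates 3 and 4, 7 rose. In a list of 11 eye field and retina genes 0 rose and Mitf, a regulator of pigment cells, fell 1.51-fold (-0.59 ± 0.17 log2, adjusted p = 0.0198), with a list median of 0.24 log2. Without P81S replicates 3 and 4, 2 of the 11 rose.

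No gene in a list of more caudal regions was called higher with all 4 P81S arrays. The midbrain and hindbrain list had 0 rises, 3 falls and 9 genes that did not pass among 12, with a median of -0.54 log2. Of all genes 17.2% were called higher and 17.5% lower, and 12 genes cannot tell the list from those shares. Gbx2, which opposes Otx2 at the midbrain-hindbrain boundary, fell 2.01-fold (-1.01 ± 0.15 log2, adjusted p = 0.000389). It read 6.76, 7.18, 7.14 and 6.96 log2 in the P81S arrays, with a mean of 7.01 in P81S, 7.81 in R167Q and 8.02 in wildtype. Hoxb1, a marker of a hindbrain segment, fell 2.86-fold (-1.51 ± 0.26 log2) and Pax2 1.54-fold (-0.63 ± 0.19). With any of P81S replicate 1, replicates 1 and 2, or replicates 3 and 4 left out, 1 of the 12 rose and 3 or 4 fell. Differences between the regional lists were not tested.

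Among 17 head organiser and patterning signals 1 rose, 4 fell and 12 did not pass. Beside the 17.2% of all genes called higher and 17.5% called lower, 17 genes cannot tell the list from those shares. Wnt8b, a Wnt ligand of the medial cortex, rose 3.16-fold (1.66 ± 0.27 log2, adjusted p = 0.000807). Lefty1, a Nodal antagonist that stem cells also express, fell 10.8-fold (-3.43 ± 0.48 log2), and Fgf8, a ligand of the anterior neural ridge and the midbrain-hindbrain boundary, 1.89-fold (-0.92 ± 0.19). Of 11 co-repressor and LIM cofactor genes, whose products bind several of the 9 factors or their relatives, 5 rose, 1 fell and 5 did not pass. Lmo4 rose 1.69-fold, Lmo2 1.47-fold and Lmo3 2.01-fold. In R167Q against wildtype, 0 genes passed in any of the 22 lists at an adjusted p under 0.05 by limma; among 184 genes of the brain, choroid plexus, gland, lung, urogenital and pluripotency lists, 16 had an unadjusted p under 0.05.

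**Figure D4:**
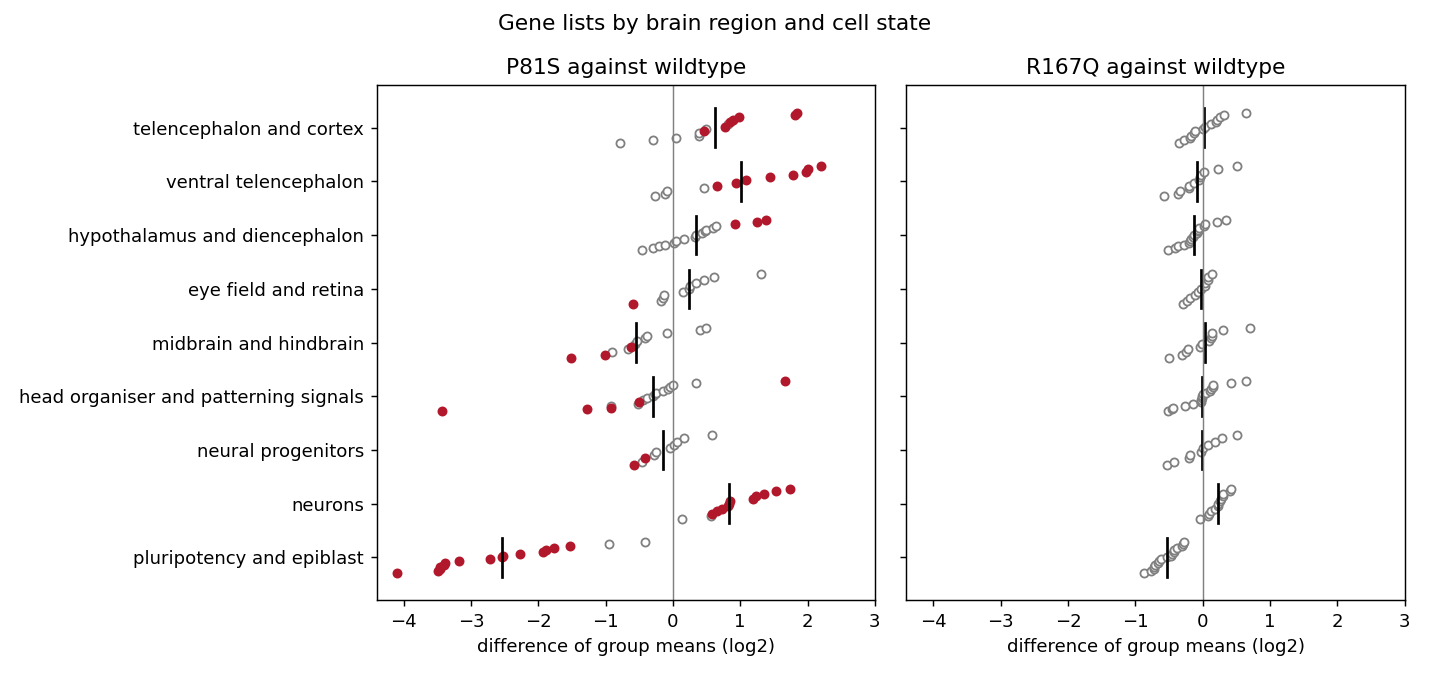
Difference from wildtype (log2, horizontal axis) of each measured gene in 9 lists, for P81S (left) and R167Q (right); filled points have an adjusted p under 0.05 and black bars are list medians. In P81S the medians are 0.63 and 1.01 for the telencephalic lists, -0.54 for midbrain and hindbrain and -2.54 for pluripotency, and no point is filled in R167Q.

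Neuron markers and some glia markers also rose in P81S, while neural progenitor markers did not. The part of these cell types in the result was not tested. Of 13 neuron genes 11 rose and 0 fell in P81S against wildtype, among them Syp, of synaptic vesicles (3.33-fold), Map2 (1.80-fold) and Myt1l (2.88-fold). The mean over the list was 11.06 to 11.46 log2 in P81S, 10.43 to 10.85 in R167Q and 10.19 to 10.56 in wildtype. Within P81S the mean was 11.06, 11.46, 11.43 and 11.28 in replicates 1 to 4. Of 10 glia genes 3 rose and 0 fell, Slc1a2, Gfap and Slc1a3. Their list means were 9.63 to 10.48 in P81S, 9.21 to 9.95 in R167Q and 9.05 to 9.47 in wildtype. Within P81S the glia mean was 9.63, 9.77, 10.03 and 10.48 in replicates 1 to 4. Neither the neuron nor the glia mean had replicates 1 and 2 both above replicates 3 and 4. Of 10 neural progenitor genes 0 rose and 2 fell, Sox3 (-0.58 log2) and Sox2 (-0.41 log2). Of all genes 17.2% were called higher and 17.5% lower, and 10 genes cannot tell the list from those shares. The progenitor mean overlapped between groups, at 9.64 to 10.28 in P81S, 9.85 to 10.30 in R167Q and 10.08 to 10.24 in wildtype. Within P81S it was 10.28, 10.2, 9.94 and 9.64 in replicates 1 to 4, so replicates 1 and 2 were both above replicates 3 and 4. That order also held for the means of the pluripotency and head organiser lists, among others. The causes of these orders were not tested.

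Pluripotency and epiblast genes fell in P81S, the direction of Hesx1. The list of 17 had 0 rises, 15 falls and 2 genes that did not pass, with a median of -2.54 log2, and the list mean was 6.23 to 7.61 log2 in P81S, 8.57 to 9.39 in R167Q and 9.37 to 9.98 in wildtype. Dppa3, Dppa4 and Gdf3 fell 17.1-fold, 9.06-fold and 6.60-fold. Against wildtype, the list had a median of -0.53 log2 in R167Q, with 0 of 17 called. The part of stem-like cells in the Hesx1 values was not tested.

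Markers of the other tissues in which these genes work are read beside the 17.2% of all genes called higher and 17.5% called lower. With 6 to 10 genes per list, such counts cannot tell a list from those shares. Of 6 thyroid genes 0 rose and 1 fell, Pax8 (3.31-fold lower), which is also a gene of the midbrain-hindbrain boundary and kidney. Of 10 lung epithelium genes 2 rose, Abca3 (1.95-fold) and Scgb3a1 (6.35-fold), and 0 fell. The mean of the lung list across P81S replicates was 7.34, 5.83, 6.30 and 6.16 log2, against 5.85 to 6.38 in R167Q and 5.78 to 5.85 in wildtype. The part of thyroid or lung tissue in the Nkx2-1 values was not tested. For Emx2, 0 of 8 urogenital ridge genes rose and Wt1 fell 2.64-fold. For Otx2, 1 of 6 choroid plexus genes rose, Kl (1.65-fold), and 1 fell, Folr1 (2.00-fold). The list mean was highest in P81S replicate 1 at 8.76 log2, against 6.67 to 7.17 in the other P81S arrays, 6.80 to 7.24 in R167Q and 7.04 to 7.30 in wildtype.

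Pituitary genes, the lineage that Hesx1 helps to found, were not lower. Of 10 measured 3 rose and 0 fell: Cga, the shared alpha subunit of glycoprotein hormones, at 14.8-fold (3.89 ± 0.60 log2, adjusted p = 0.000576), Lhb at 1.69-fold and Prl at 1.38-fold. Prl read 4.4 to 4.99 log2 in P81S and 4.25 to 4.28 in wildtype, under the 5.98 log2 that marks dim genes here. The 7 others did not pass, with differences between -0.20 log2 for Lhx3 and 0.75 log2 for Tbx19. The list mean, which includes Cga, was 5.91 to 6.41 log2 in P81S, 5.50 to 5.55 in R167Q and 5.51 to 5.57 in wildtype. In the remaining lists the counts called higher and lower against wildtype were 1 and 0 of 9 for squamous epithelium, 0 and 1 of 7 for gut epithelium, 0 and 0 of 6 for skeletal muscle, 1 and 0 of 5 for cartilage, 0 and 1 of 5 for endothelium and 0 and 0 of 5 for macrophages.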

How the data were processed

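The genes, lists and tests were chosen with earlier results of these data known. The authors deposited 1 log2 value per probe set and array. RMA and Partek are named in the submitters' processing notes, and their versions, roles and settings are not given in the sources used here. Of 35556 probe sets, 6616 numbered below the first annotated one were left out as controls, and of the rest 21218 were annotated to 1 gene, 1881 to several and 5841 to none. Entrez numbers of 21185 matched a RefSeq table (GRCm38.p6). Where a gene had several probe sets, the one highest on average stood for it, which left 18820 genes.

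All 10 arrays entered a linear model with 3 group means fitted in limma 3.58.1 (R 4.3.3, statmod 1.5.0) by lmFit, and two-sided p-values came from eBayes with trended variances, 7 residual and 3.85 prior degrees of freedom. Benjamini-Hochberg adjustment ran over all genes, with calls made at adjusted p under 0.05. On simulated arrays for P81S against wildtype over 18820 genes, the model recovered 80% of 100 genes changed by 1 log2 and 95% of 100 changed by 2 log2. The simulation changed only these 200 genes and drew independent noise for each gene, without clones. In the data 34.7% of genes were called in this comparison, so the recovered shares need not carry over. No source says that tumours came from separate cultures or animals, so p-values measure only the spread between these tumours. The number of arrays limits the precision.

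Besides the 9 genes, 22 lists with 244 entries were looked up by symbol, of which 221 were measured. Genes named are the 9, up to 3 per list with the smallest p in P81S against wildtype, up to 2 per list called in R167Q, and the 2 closest profiles for each of the 9 genes whose values ranged over at least 1 log2. Alternatives were quantile normalization, median centring, leaving out genes with a mean under 5.98 log2, the mean of a gene's probe sets, other variance models, array weights, only the compared groups, the replicate number as a block, each pairing of P81S clones as a random block, and leaving out arrays. Whether equal replicate numbers pair arrays was checked by correlating deviations from group means.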

Additional observations from a re-analysis of the deposited data

Results flagged for a closer look

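Among 87 named genes, 8 had 1 P81S array far from the other 3, by Dixon's criterion at the 95% level, which chance meets in about 1 in 20 groups; none of the 9 forebrain genes was among them. P81S replicate 1 was the distant array for 5 of the 8. Krt10 read 9.46 log2 there, against 6.54 to 6.72 in the other P81S arrays, and Krt1 8.57 against 6.62 to 6.88. Clic6, of the choroid plexus list, read 8.76 against 6.44 to 6.78, and Gata4 7.82 against 6.25 to 6.47. Fabp7 was lower there, at 13.67 against 13.76 to 13.78. In P81S replicate 4, Rlbp1 of the retina list read 8.59 against 7.13 to 7.26, and Ephx2 7.59 against 7.20 to 7.26. In P81S replicate 2, Pak6 read 9.72 against 9.18 to 9.24.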

How the results depend on the processing

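Against wildtype, 6 to 9 of the 9 genes were called in P81S over all alternatives, and against R167Q 6 to 8. The rises of Nkx2-1, Fezf2, Six3, Emx2 and Barhl2 and the fall of Hesx1 in P81S passed in all 24 alternatives of either comparison. Among these alternatives, each pairing of P81S clones as a random block used 1 correlation over all genes, 0.047, -0.23 or -0.029. Such a value need not hold for these genes, so their dependence on clones was not tested by it. Rax passed in 12 of 24 against wildtype, and Otx2 reversed to 0.60 log2 (adjusted p = 0.0398) without P81S replicates 3 and 4. In R167Q against wildtype, Hesx1 passed in 9 of 22 alternatives, and 0 of the 9 genes were called with median centring, with dim genes left out, with only the compared groups or with the replicate block (adjusted p = 0.212), and 0 to 1 with 1 array left out. Over all genes, this comparison had 17 calls, 11 with dim genes left out, 26 with only the compared groups, 42 with array weights and 5 to 21 with 1 array left out. P81S against wildtype had 6530 calls, 8669 with array weights, 4828 without P81S replicates 3 and 4, and 5073 to 6953 with 1 array left out. Array weights moved Nkx2-1 to 1.40 log2 against wildtype and 1.69 against R167Q, and Fezf2 to 1.30 and 1.51. P81S against R167Q had 4234 calls, 2419 without P81S replicates 3 and 4, and 2328 (without R167Q replicate 1) to 4916 with 1 array left out. The causes were not tested. Equal replicate numbers were not taken to pair arrays: 2 of 9 same-number correlations exceeded 0.1 (range -0.278 to 0.212). With 3 or 4 arrays per group this check cannot exclude a pairing. The replicate block gave 5368, 15 and 2952 calls for P81S against wildtype, R167Q against wildtype and P81S against R167Q, with 7, 0 and 7 of the 9 genes. Signal over background is unknown, which limits what low values show.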
